A study of Eisenia fetida with 6 samples.

Results

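The sequences described here are the members of the largest contig clusters in the intestine of the earthworm Eisenia fetida, measured by RNA-seq in worms exposed to tri-n-butyl phosphate (TnBP) and in control worms. A contig is a transcript sequence put together from reads, and identifiers that share a CL number were read as 1 assembly cluster. The members are all contigs of clusters with 8 or more contigs over the 6 libraries, except contigs that made up at least 0.1% of control counts on average. This gave 117 members in 13 clusters, out of 55641 sequences in all. Of the other sequences, 7971 belonged to clusters of 1 to 7 contigs and 47552 were single unigenes. The exception removed 1 contig, CL136.Contig1, which held 3.87% of control counts, whereas the nearest members inside the limit were CL650.Contig3 at 0.0364% and CL2986.Contig5 at 0.0255%. The largest cluster, CL2346, had 13 contigs, CL509 had 11, CL299 and CL2986 had 10 each, CL19 and CL136 had 9 each, and the other 7 clusters had 8 each.

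A cluster gathers assembled sequences that resemble each other. Its contigs can be splice forms of a gene, alleles, fragments of a longer transcript, or copies of related genes, and reads that match several of them have to be divided by a statistical model. The earthworm intestine digests soil and litter and is a first site of contact with a contaminant taken up by mouth. TnBP, a phosphate ester of butanol, serves as a solvent, a plasticizer and a flame retardant. The files pair no identifier with a gene name, so no member can be given a function, and the intestinal origin could not be checked against marker genes.

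TnBP worms were exposed to 10 mg/kg, and control worms are labelled as a control group with no dose or solvent given. All were adult worms of a commercial stock, kept 10 to a container in artificial soil for 14 days at 20 °C. Each group had 3 libraries, each made from the pooled intestines of 3 worms, and the labels do not say whether pools of a group came from separate containers, so each p-value rests on the spread of these pools, which may be technical. TnBP libraries held 9494666 to 9643939 expected counts and control libraries 8435554 to 9099412. Levels are given as CPM after TMM scaling, that is read counts over scaled library size, a library correction that assumes most contigs did not change, or as the deposited FPKM where contigs of unequal length are compared. TMM lowered all TnBP over control ratios: the median log2 ratio of all 25353 tested contigs was 0.79 in library totals and 0.01 after TMM, so each fold change is relative to that shift. In such pooled tissue, fewer cells of a type and less RNA per cell cannot be told apart.

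The members together held a larger share of raw library totals in exposed intestines, by less than the series-wide shift between the groups, and the direction turned after TMM. They took 0.375%, 0.362% and 0.399% of the counts of TnBP libraries, against 0.250%, 0.247% and 0.244% of control libraries. The means were 0.379% ± 0.0187 with TnBP and 0.247% ± 0.00271 in controls (SD, n = 3 each), and the groups did not overlap (two-sided exact permutation test, p = 0.1, the smallest that 3 against 3 libraries allow). After TMM, a setting chosen after seeing the data, the members summed to 2832, 2891 and 3059 CPM in TnBP libraries, against 3383, 3161 and 3245 CPM in control libraries, again without overlap (exact permutation test, p = 0.1). With CL136.Contig1 put back the order turned in library totals too, with 2.14% ± 0.129 in TnBP libraries and 4.12% ± 0.460 in control libraries. At least 1 count was found for 108, 110 and 110 of the 117 members in TnBP libraries, against 88, 89 and 89 in control libraries (exact permutation test, p = 0.1). In all 6 libraries 76 members were listed, while 16 members were at 0 in every control library and 1 member was at 0 in every TnBP library.

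Summed over their members, 7 of the 13 clusters were higher in TnBP intestines, 4 were lower and 2 did not pass the test. Among the 7, the sums of CL734 and CL1075 had enough counts to be tested only through their TnBP libraries. Their direction was therefore fixed, and these calls add no support. In every cluster but CL136 all contigs are members, and sums do not depend on how reads are divided within the cluster. The sum of CL136 leaves out CL136.Contig1 and does depend on it. The test was edgeR's quasi-likelihood test over 22981 cluster sums and unigenes, called at a Benjamini-Hochberg adjusted p under 0.05. Over all of these, 52.6% were called, 25.3% higher and 27.4% lower. The 7 rises kept their direction and call in library totals, whereas none of the 4 falls did. Library totals raise all TnBP over control ratios, so a rise that is kept there adds no support. In library totals 11 of the 13 clusters were called higher and 0 lower. Of all 22981 sums and unigenes 58.3% were called higher and 11.8% lower in library totals.

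**Figure D1:**
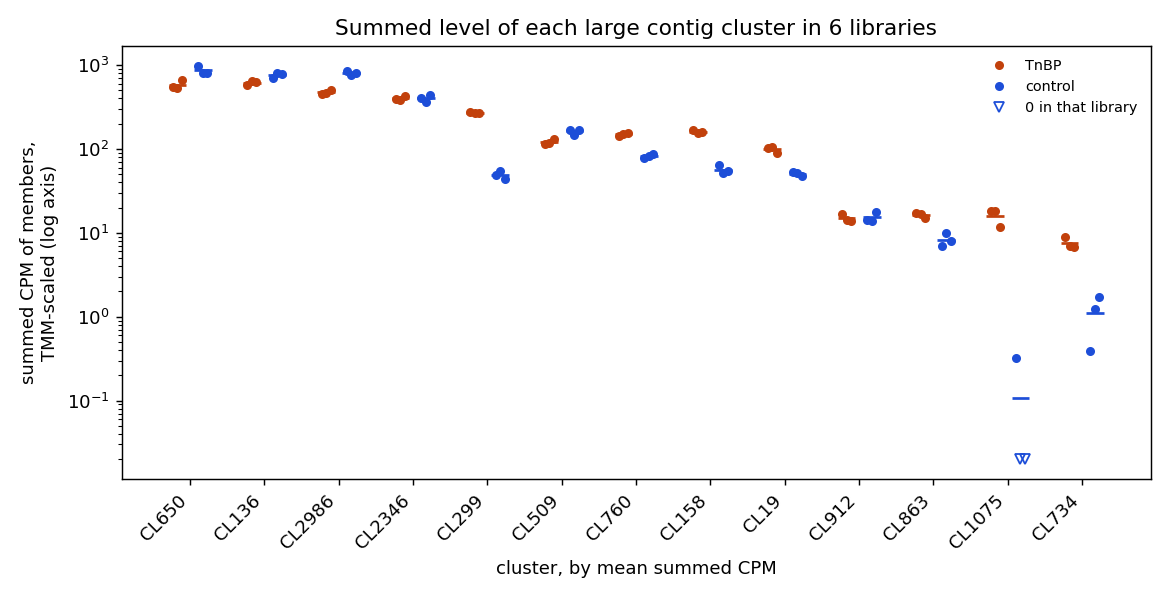
Summed TMM-scaled CPM of the members of each cluster (vertical log axis) in 3 TnBP libraries (orange, left) and 3 control libraries (blue, right), with group means as bars and clusters ordered by mean level. Libraries at 0 are open triangles at the bottom edge. The groups stand apart in 11 clusters and overlap in CL2346 and CL912.

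The steepest rise among abundant clusters was that of CL299. Its sum was 276, 270 and 265 CPM in TnBP libraries, against 48.6, 54.5 and 44.0 CPM in control libraries. The log2 fold change was 2.45 ± 0.10 (SE, adjusted p by edgeR = 6.3e-19). All TnBP libraries lay far above all control libraries, and the 3 TnBP values differed by less than the gap to the nearest control.

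CL158, CL19 and CL760 rose less steeply. CL158 summed to 168, 155 and 158 CPM with TnBP, against 63.9, 51.4 and 54.7 CPM in controls, a log2 ratio of 1.49 ± 0.10 (SE, adjusted p by edgeR = 1.1e-13). CL19 summed to 102, 107 and 89.7 CPM with TnBP, against 53.6, 51.2 and 47.1 CPM in controls, a log2 ratio of 0.96 ± 0.11 (adjusted p by edgeR = 2.8e-09). In each of them the lowest TnBP library stood above the highest control library. CL760 summed to 144, 149 and 156 CPM with TnBP, against 78.9, 82.3 and 86.2 CPM in controls, a log2 ratio of 0.85 ± 0.10 (adjusted p by edgeR = 6.8e-09).

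The other 3 risen clusters were rare. CL863 held 221, 199 and 187 expected counts in TnBP libraries, against 43, 69.99 and 55 in control libraries, with a log2 ratio of 0.96 ± 0.16 (SE, adjusted p by edgeR = 5.9e-06). CL734 held 114, 83.5 and 84.7 expected counts with TnBP, against 2.43, 8.77 and 11.7 in controls, with a log2 ratio of 2.71 ± 0.31 (adjusted p by edgeR = 7.1e-09). CL1075 held 234, 216 and 145 expected counts in TnBP libraries, against 2, 0 and 0 in control libraries (adjusted p by edgeR = 4.8e-15). Per scaled library size that is a ratio of 161, with an exact 95% interval of 44.3 to 1331 that covers counting error only. The sums of CL734 and CL1075 had enough counts to be tested only through TnBP libraries, so they could only come out higher.

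The 4 clusters with lower sums were among the 6 most abundant, and none of these falls was called in library totals. CL2986 summed to 453, 470 and 510 CPM with TnBP, against 858, 763 and 795 CPM in controls. Its log2 fold change was -0.76 ± 0.09 (SE, adjusted p by edgeR = 2.0e-08), and 0.03 in library totals (adjusted p by edgeR = 0.78). CL650 summed to 546, 533 and 655 CPM with TnBP, against 985, 811 and 808 CPM in controls, with a log2 ratio of -0.60 ± 0.10 (adjusted p by edgeR = 7.8e-06), and 0.20 in library totals (adjusted p by edgeR = 0.071). CL509 summed to 113, 119 and 130 CPM with TnBP, against 169, 146 and 170 CPM in controls, at -0.43 ± 0.10 (adjusted p by edgeR = 0.00041), and was called higher in library totals at 0.36 (adjusted p by edgeR = 0.0016). The members of CL136 summed to 572, 648 and 623 CPM with TnBP, against 705, 809 and 774 CPM in controls, at -0.32 ± 0.09 (adjusted p by edgeR = 0.0039), and were called higher in library totals at 0.47 (adjusted p by edgeR = 4.4e-05). In FPKM, which carries no TMM factor, the members of CL136 were called lower at -0.55 (adjusted p by limma = 0.0042 with a pseudocount of 1). A sum of FPKM gives short contigs more weight than a sum of counts, so it is another measure. In library totals CL136.Contig2, of 6581 bases, changed by 1.58 and CL136.Contig4, of 221 bases, by -1.18. With CL136.Contig1 put back, the sum of the cluster changed by -1.87 (adjusted p by edgeR = 1.4e-16). The groups did not overlap in CPM in any of the 4.

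CL2346, the cluster with the most contigs, did not pass the test after TMM. Its sum was 398, 385 and 425 CPM with TnBP and 400, 368 and 440 CPM in controls, a log2 ratio of -0.01 ± 0.09 (adjusted p by edgeR = 0.93). In library totals it was called higher, at 0.78 (adjusted p by edgeR = 1.3e-08), which lies at the median shift of all contigs. CL912 summed to 16.5, 14.1 and 13.9 CPM with TnBP and 14.1, 14.0 and 17.7 CPM in controls, at -0.05 ± 0.14 (adjusted p by edgeR = 0.79), and at 0.74 in library totals (adjusted p by edgeR = 6.6e-05).

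Of the 117 members, 87 had enough counts to be tested one by one and 30 had not. The filter passes a contig that is frequent in either group, so those tested are not a neutral sample of the members. Among the 87, 31 were higher in TnBP intestines and 19 lower (edgeR quasi-likelihood test, adjusted over all 25353 contigs tested). These are 35.6% and 21.8% of the tested members, beside 24.1% higher and 24.5% lower among all contigs. In clusters of 1 to 7 contigs 32.4% were higher and 22.9% lower, and among single unigenes 21.8% and 24.9%. The difference between large and smaller clusters was not tested. With a filter of 5 CPM in 3 libraries 18 members were higher and 23 lower. At 2-fold or more 24 of the 87 were higher and 7 of the 87 lower. Among all 25353 contigs 4282 were higher, or 16.9%, and 4314 lower, or 17%. The median log2 fold change was 0.05 over the tested members and 0.01 over all tested contigs. TMM-scaled CPM did not overlap between groups for 58 tested members, or 66.7%, beside 57.8% of all. In library totals 54 of the 87 tested members were higher and 5 of the 87 lower. Among all 25353 contigs 13733 were higher, or 54.2%, and 2831 lower, or 11.2%. The members' median was 0.83.

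**Figure D2:**
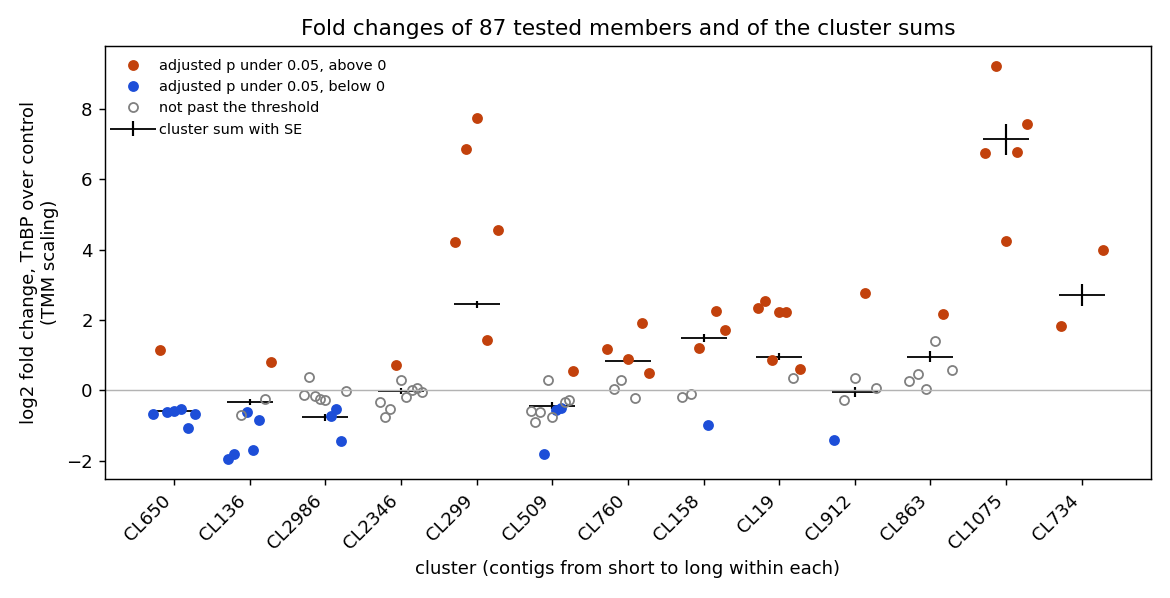
TMM-scaled log2 fold change (TnBP over control) of the 87 tested members, from short to long contigs within each cluster, with filled points for calls at an adjusted p by edgeR under 0.05. Black crosses give the cluster sum with its SE. Fitted values of contigs with 0 counts in all controls, in CL299 and CL1075, depend on the prior count of edgeR and show direction only.

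In 7 clusters the called members all rose, in 1 they all fell, and in 5 clusters members were called in both directions. Both directions were seen in CL136, CL158, CL509, CL650 and CL912. Over the whole series 28.7% of clusters with 2 or more called contigs held both, and 27.3% of the 55 clusters with 4 or more called contigs. Clusters of 2 contigs, 2580 in number, are the most common in the series, so these shares are not matched for size. In library totals the clusters with both directions were 3 in number, CL136, CL509 and CL2986, and at 2-fold or more they were 2, CL650 and CL912. The clusters whose called members all rose were CL299 and CL1075 with 5 each, CL19 with 6, CL760 with 4, CL734 with 2, and CL863 and CL2346 with 1 each. Members with few or no control counts passed the filter only through TnBP libraries, so their direction was fixed. They include the called members of CL1075 and CL734, and CL299.Contig2, CL299.Contig4 and CL299.Contig6 in CL299. In CL2986 the 3 called members all fell, although 1 of these, CL2986.Contig6, was called higher in library totals.

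The steepest rise among members with a count in every library and a mean of at least 10 CPM was that of CL299.Contig5, a contig of 5587 bases. It had 146, 157 and 133 CPM with TnBP, against 5.57, 7.24 and 5.51 CPM in controls, a log2 ratio of 4.56 ± 0.14 (SE, adjusted p by edgeR = 3.1e-09). CL158.Contig1, 3061 bases long, had 130, 122 and 123 CPM with TnBP, against 28.8, 24.2 and 24.9 CPM in controls, a log2 ratio of 2.27 ± 0.10 (adjusted p by edgeR = 2.2e-08). CL19.Contig6 had 15.7, 14.8 and 14.3 CPM with TnBP, against 2.95, 2.97 and 3.60 CPM in controls, at 2.22 ± 0.18 (adjusted p by edgeR = 1.4e-06). In all 3 contigs every TnBP library exceeded every control library. In library totals, which raise all ratios, the rises were 5.34, 3.05 and 3.0.

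The steepest falls were in short contigs, and they passed the test in library totals as well. CL136.Contig4, 221 bases long, had 31.5, 39.2 and 30.9 CPM with TnBP, against 90.9, 131 and 171 CPM in controls, a log2 ratio of -1.95 ± 0.20 (SE, adjusted p by edgeR = 9.3e-06). CL509.Contig8, of 438 bases, had 5.17, 5.28 and 7.21 CPM with TnBP, against 23.5, 17.9 and 20.9 CPM in controls, at -1.82 ± 0.18 (adjusted p by edgeR = 7.6e-06). CL136.Contig3, of 228 bases, had 23.6, 26 and 18.5 CPM with TnBP, against 72.9, 80.0 and 86.6 CPM in controls, at -1.81 ± 0.13 (adjusted p by edgeR = 7.9e-07). The groups did not overlap in any of them, and the library-total changes were -1.18, -1.03 and -1.04. Only 5 members were called lower in library totals, these 3 with CL136.Contig5 and CL2986.Contig5.

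Found with TnBP only, with at least 10 counts in each TnBP library and under 1 in each control library, were 6 members, and 0 members showed the reverse. Over all contigs 0.439% were found with TnBP only and 0.498% in controls only, and in clusters of 1 to 7 contigs 1.33% and 0.226%. Of these, 4 belonged to CL1075 and 2 to CL299. CL1075.Contig5 had 133, 108 and 52.1 expected counts in TnBP libraries and 0 in every control library, at least 52.8-fold higher when the controls together are set at a floor of 3 counts. CL299.Contig2 had 49, 29 and 27 counts with TnBP and 0 in every control library, at least 18.9-fold higher. CL1075.Contig9 had 36.7, 32.8 and 23.3 counts with TnBP and 0 in every control library, at least 16.7-fold higher.

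Whether a member changed differently from its own cluster was tested directly with edgeR's diffSpliceDGE, called the usage test here, which sets each contig against the summed counts of its cluster. A scaling factor of a library cancels within a cluster. Of 87 members tested, 21 changed upward relative to their cluster and 10 downward, 31 in all or 35.6%. The upward calls include members with few or no control counts, such as CL299.Contig2 and CL299.Contig6 at 0 in every control library. Such members passed the filter only through TnBP libraries, so their upward calls add no support. Over all 4382 contigs so tested in the series, 23.0% were called, 13.1% upward and 9.86% downward. Most clusters of the series have fewer contigs than the large clusters, so these shares are not matched for size. Library totals gave the same 21 and 10. With CL136.Contig1 left out of its cluster, a setting chosen after seeing the data, 17 changed upward and 13 downward. A contig that holds most of a cluster's counts is compared with a total it largely makes up itself, which narrows its own relative change. Leaving out each library in turn kept 23 of the 31 calls every time.

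**Figure D3:**
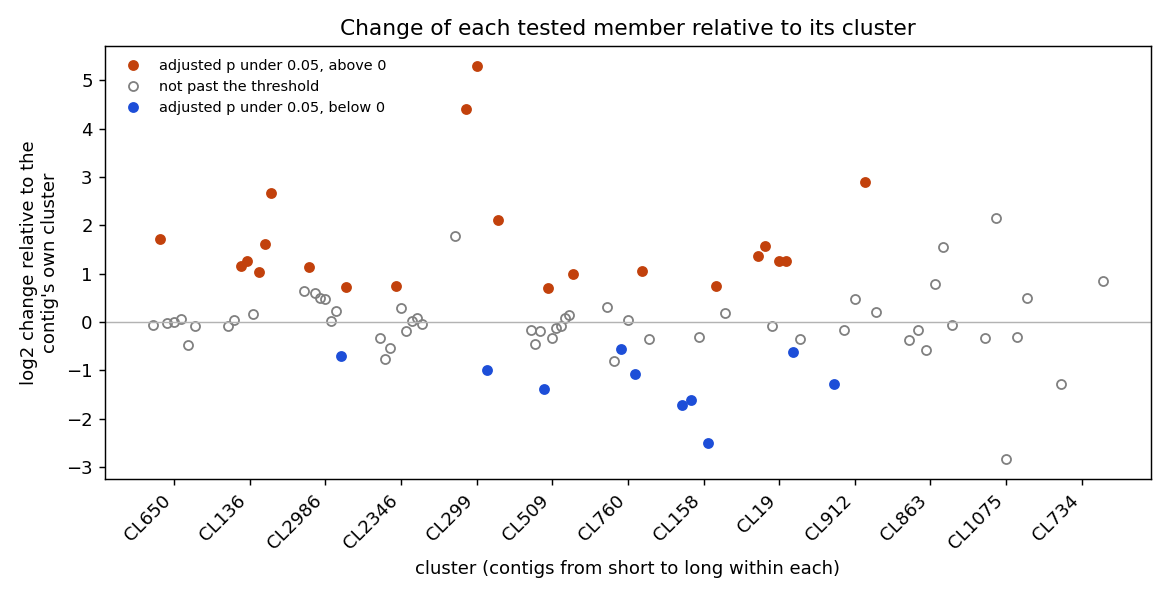
Log2 change of each tested member relative to its own cluster (TnBP over control), from short to long contigs within each cluster, with filled points for calls at an adjusted p under 0.05 in edgeR's diffSpliceDGE. Called contigs lie above and below 0 in CL299, CL2986, CL509, CL760, CL158, CL19 and CL912, and 0 contigs are called in CL863, CL1075 and CL734.

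In 7 clusters members were called in both directions relative to the cluster. In CL19 this rests on CL19.Contig2, the only downward call (edgeR usage test, adjusted p = 0.032). With each library left out in turn, that call was kept only 1 time, with adjusted p up to 0.19. The upward calls of CL19.Contig4 and CL19.Contig7 were likewise each kept only 1 time. In CL158, CL158.Contig1 rose more than its cluster, by 0.74 on the log2 scale (edgeR usage test, adjusted p = 0.00029). CL158.Contig5, of 1350 bases, changed by -2.51 relative to the cluster (edgeR usage test, adjusted p = 6.8e-09). It had 6.03, 5.16 and 4.61 CPM with TnBP, against 9.96, 12.7 and 8.47 CPM in controls, and its own fall of -0.98 ± 0.20 (adjusted p by edgeR = 0.0020) was -0.20 in library totals (adjusted p by edgeR = 0.43). So these contigs of 1 cluster moved apart, while the size and call of the fall of CL158.Contig5 rest on the scaling.

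CL912 did not pass the test as a sum, and its contigs moved apart. CL912.Contig6 had 3.51, 2.28 and 2.55 CPM with TnBP, against 0.228, 0.626 and 0.374 CPM in controls, a log2 ratio of 2.77 ± 0.44 (SE, adjusted p by edgeR = 0.00029). CL912.Contig1 had 2.60, 1.71 and 2.91 CPM with TnBP, against 5.94, 5.5 and 7.88 CPM in controls, a log2 ratio of -1.41 ± 0.26 (adjusted p by edgeR = 0.00083), and -0.63 in library totals (adjusted p by edgeR = 0.056). Relative to the cluster they changed by 2.90 (edgeR usage test, adjusted p = 6.6e-05) and by -1.29 (edgeR usage test, adjusted p = 0.0018). Both contigs had libraries that did not overlap between groups. The control libraries held only 1.42 to 4.39 expected counts of CL912.Contig6, so the size of its rise rests on few reads.

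CL760 and CL2986 held contigs that moved apart at higher levels. CL760.Contig4, of 2017 bases, had 77.8, 82.8 and 79.1 CPM with TnBP, against 22.5, 19.7 and 21.8 CPM in controls, a log2 ratio of 1.91 ± 0.10 (adjusted p by edgeR = 6.9e-08). CL760.Contig7, of 1663 bases, had 18.2, 19.5 and 20.0 CPM with TnBP and 20.8, 21.2 and 25.3 CPM in controls, and changed by -1.08 relative to the cluster (edgeR usage test, adjusted p = 3.0e-07). CL2986.Contig5 had 116, 122 and 132 CPM with TnBP, against 354, 312 and 343 CPM in controls, at -1.45 ± 0.09 (adjusted p by edgeR = 2.2e-07), and -0.67 in library totals. CL2986.Contig7, of 4371 bases, had 83.0, 86.0 and 87.5 CPM with TnBP and 94.0, 87.8 and 78.3 CPM in controls, and changed by 0.73 relative to the cluster (edgeR usage test, adjusted p = 4.0e-05).

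In CL650, 1 contig moved apart from the others. CL650.Contig4, of 511 bases, had 26, 28.4 and 33.9 CPM with TnBP, against 13.4, 14.7 and 12 CPM in controls, a log2 ratio of 1.14 ± 0.14 (SE, adjusted p by edgeR = 5.4e-05). The other 6 tested members were all called lower after TMM, with 0 called lower in library totals, and 0 of them were called different from the cluster in the usage test. CL2346 was similar, with CL2346.Contig7 called higher at 0.74 ± 0.15 (adjusted p by edgeR = 0.0014), and its other 8 tested members not called. CL2346.Contig7 had 21.2, 21.2 and 22.3 CPM with TnBP, against 13.7, 14.7 and 10.5 CPM in controls. Its usage call (adjusted p = 0.0046) was lost without TnBP replicate 2, TnBP replicate 3 or control replicate 3, with adjusted p up to 0.16.

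In CL136 the comparison depends on CL136.Contig1, the contig of 6365 bases outside the members. It held 12424, 15299 and 13211 CPM in TnBP libraries, against 48352, 56454 and 48463 CPM in control libraries, and outweighed its cluster. Relative to the cluster with that contig, 5 members changed upward and 0 downward. Relative to the members alone, a comparison added after the data were seen, 1 changed upward and 3 downward. CL136.Contig2, of 6581 bases, was called upward both ways, by 2.66 with CL136.Contig1 (edgeR usage test, adjusted p = 2.2e-15) and by 1.11 without it (adjusted p = 3.9e-06). It had 251, 277 and 275 CPM with TnBP, against 154, 168 and 140 CPM in controls, a rise of 0.80 ± 0.09 (adjusted p by edgeR = 3.3e-05). CL136.Contig3, CL136.Contig4 and CL136.Contig5, of 228, 221 and 505 bases, fell with log2 fold changes from -1.95 to -1.70, close to the -1.90 of CL136.Contig1.

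The leading contig, the member with the highest mean FPKM, differed between TnBP and control in 7 of the 13 clusters. In the whole series it differed in 24.2% of clusters with 2 or more contigs whose leading FPKM reached 1 in both groups. Most clusters of the series have fewer contigs than these 13, so that share is not matched for size. Of the 13 clusters 11 meet that FPKM limit, which CL863 and CL1075 miss, and it differed in 5 of these. By expected counts, which favour long contigs, it differed in 8 of 13. In 5 clusters the leading contig of each group led in all 3 of its libraries. Shares within a cluster were compared in 18 tests, and in 12 of them the libraries of the groups did not overlap, each at an exact permutation p of 0.1 and a Benjamini-Hochberg adjusted p of 0.15. The 2 leading contigs of CL1075 were not compared, since 2 control libraries held 0 counts of the cluster.

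**Figure D4:**
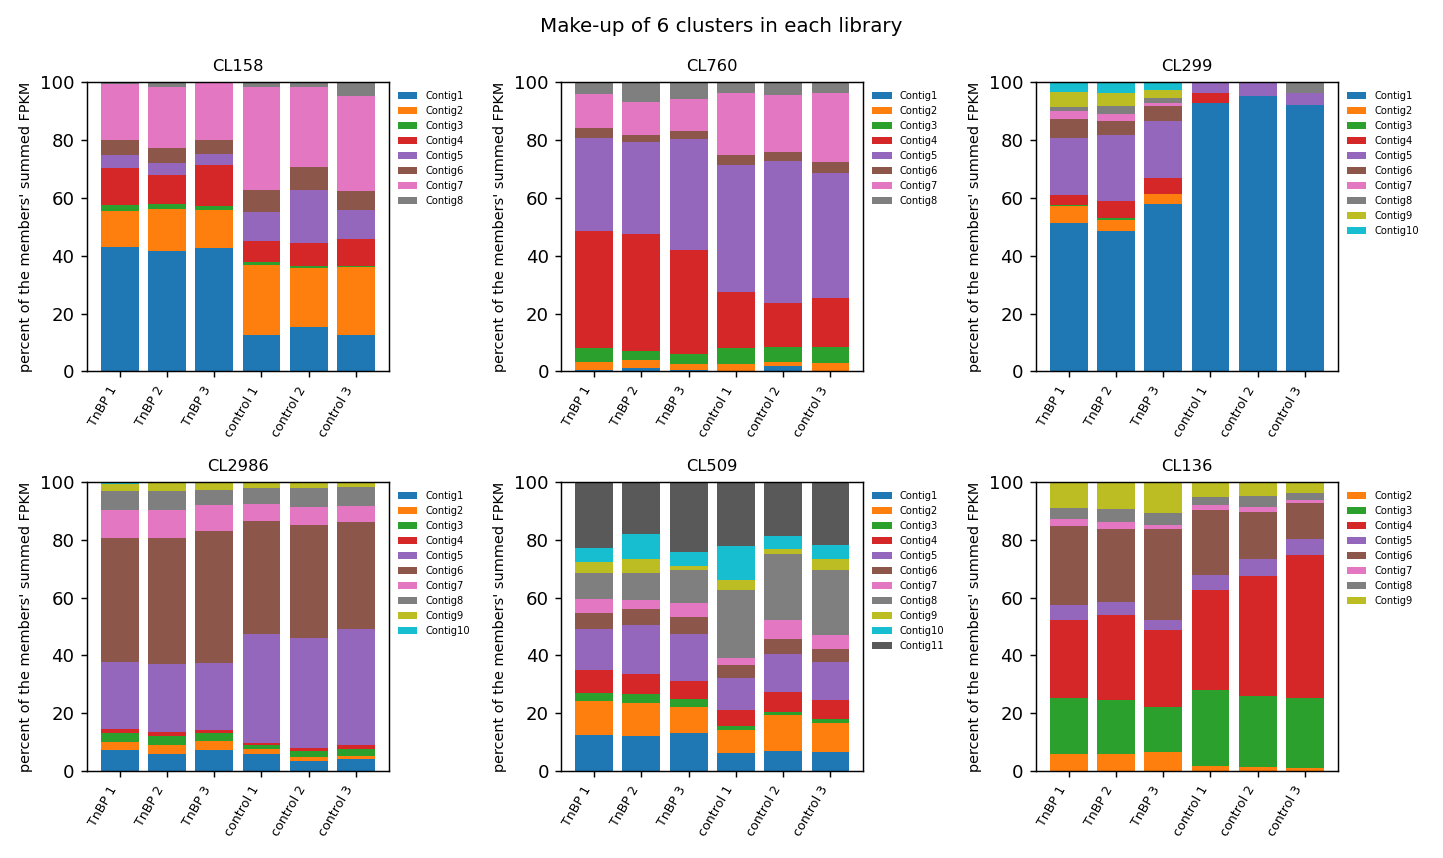
Percent of the members' summed FPKM taken by each contig in 3 TnBP libraries (left) and 3 control libraries (right), for 6 clusters. CL158.Contig1 takes 42.4% on average with TnBP and 13.4% in controls, and CL299.Contig1 takes 52.7% with TnBP and 93.5% in controls.

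In CL158 the leading contig was exchanged in FPKM, while by expected counts CL158.Contig1 led in both groups. CL158.Contig1 took 43.0%, 41.8% and 42.6% of the cluster's FPKM with TnBP, against 12.5%, 15.2% and 12.6% in controls. CL158.Contig7, of 434 bases, took 19.5%, 21.4% and 19.9% with TnBP, against 35.6%, 27.9% and 33.0% in controls, where it led in all 3 libraries. Its own level did not pass the test, at a log2 ratio of -0.10 ± 0.21 (adjusted p by edgeR = 0.74), and it turned to 0.10 without control replicate 1 and to 0.69 in library totals (adjusted p by edgeR = 0.012). In CL760, CL760.Contig4 took 40.6%, 40.5% and 36.0% with TnBP, against 19.2%, 15.1% and 16.9% in controls. CL760.Contig5, of 935 bases, took 32.1%, 31.8% and 38.5% with TnBP, against 43.9%, 49.3% and 43.3% in controls. CL760.Contig5 still led in TnBP replicate 3, where it stood just above CL760.Contig4.

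In CL2986 the exchange was between contigs of like length. CL2986.Contig6, of 2399 bases, took 42.9%, 43.6% and 45.5% with TnBP and 39.1%, 38.9% and 37.3% in controls. CL2986.Contig5, of 2562 bases, took 23.1%, 23.6% and 23.3% with TnBP, against 37.9%, 38.3% and 39.9% in controls, and led in only 1 control library. The shares of CL2986.Contig5 stood apart between groups, whereas its lead among controls was within their spread. In CL509, CL509.Contig8 took 9.30%, 9.59% and 11.4% with TnBP, against 23.4%, 23.0% and 22.5% in controls. CL509.Contig11, of 206 bases, led on average with TnBP at 22.8%, 17.9% and 24.3%, against 22.0%, 18.7% and 21.8% in controls, where groups overlapped (exact permutation test, p = 0.6, adjusted p = 0.6). Its own level missed the threshold, at -0.59 ± 0.23 (adjusted p by edgeR = 0.054) and 0.20 in library totals, and reached it without TnBP replicate 3 (adjusted p by edgeR = 0.038) or control replicate 2 (adjusted p by edgeR = 0.019). In CL136, CL136.Contig6, of 304 bases, led on average with TnBP at 27.3%, 25.2% and 31.2%, against 22.5%, 16.4% and 12.5% in controls. CL136.Contig4 took 26.8%, 29.3% and 26.7% with TnBP, against 34.4%, 41.5% and 49.4% in controls, where it led.

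CL863 and CL1075 also differed in their leading contig, and the other 6 clusters kept it by group means, in some with a changed weight. CL299.Contig1, of 1787 bases, led in every library, with 51.5%, 48.6% and 57.9% of the cluster's FPKM with TnBP, against 92.9%, 95.4% and 92.3% in controls. By mean expected counts, however, CL299.Contig5 led with TnBP and CL299.Contig1 in controls. CL299.Contig1 rose itself, at 119, 105 and 125 CPM with TnBP, against 42.9, 47.2 and 38.3 CPM in controls, a log2 ratio of 1.44 ± 0.11 (adjusted p by edgeR = 1.1e-06). Relative to its cluster it changed by -1.01 (edgeR usage test, adjusted p = 1.8e-05), while CL299.Contig5 changed by 2.11 (usage test, adjusted p = 1.9e-08). CL912.Contig1 took 18.1%, 14.4% and 25.0% with TnBP, against 46.0%, 36.8% and 49.4% in controls. It led in only 1 TnBP library. CL912.Contig2 led in TnBP replicate 1, at 24.1%, and CL912.Contig7 in TnBP replicate 2, at 17.9%. CL19.Contig3 took 22.2%, 23.3% and 22.4% with TnBP, against 29.8%, 35.8% and 34.2% in controls, where it led in 2 libraries. CL650.Contig2 took 47.1%, 47.3% and 49.1% with TnBP and 56.4%, 48.9% and 49.98% in controls (exact permutation test, p = 0.2, adjusted p = 0.28). CL2346.Contig4 took 21.1%, 20.6% and 19.6% with TnBP and 20.4%, 19.9% and 19.8% in controls (exact permutation test, p = 0.6, adjusted p = 0.6). It led in 2 TnBP libraries and in 1 control library.

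How steady a contig was between pools differed widely between clusters. Among TnBP libraries, the sum of CL863 had a coefficient of variation of 7.78%, while its 8 contigs, of 1699 to 2137 bases, ranged from 20.8% to 82.4%. CL863.Contig1 had 14.2, 57.1 and 16.4 expected counts in TnBP libraries, and CL863.Contig2 had 50.3, 4.70 and 31.4. In control replicate 1 all 43 counts of the cluster fell on 4 contigs, CL863.Contig2, CL863.Contig5, CL863.Contig7 and CL863.Contig8. In control replicates 2 and 3 all 69.99 and 55 counts fell on the other 4, and the sets shared 0 contigs. In TnBP libraries the first set held 129, 41.8 and 115 counts and the second 91.6, 157 and 71.8. The only called member of this cluster, CL863.Contig5 (adjusted p by edgeR = 0.033), lost its call without any TnBP replicate or without control replicate 2 or 3, with adjusted p of 0.061 to 0.12. Among TnBP libraries the sum of CL299 varied by 3.99%, and its 3 contigs with enough counts ranged from 6.76% to 34.1%.

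**Figure D5:**
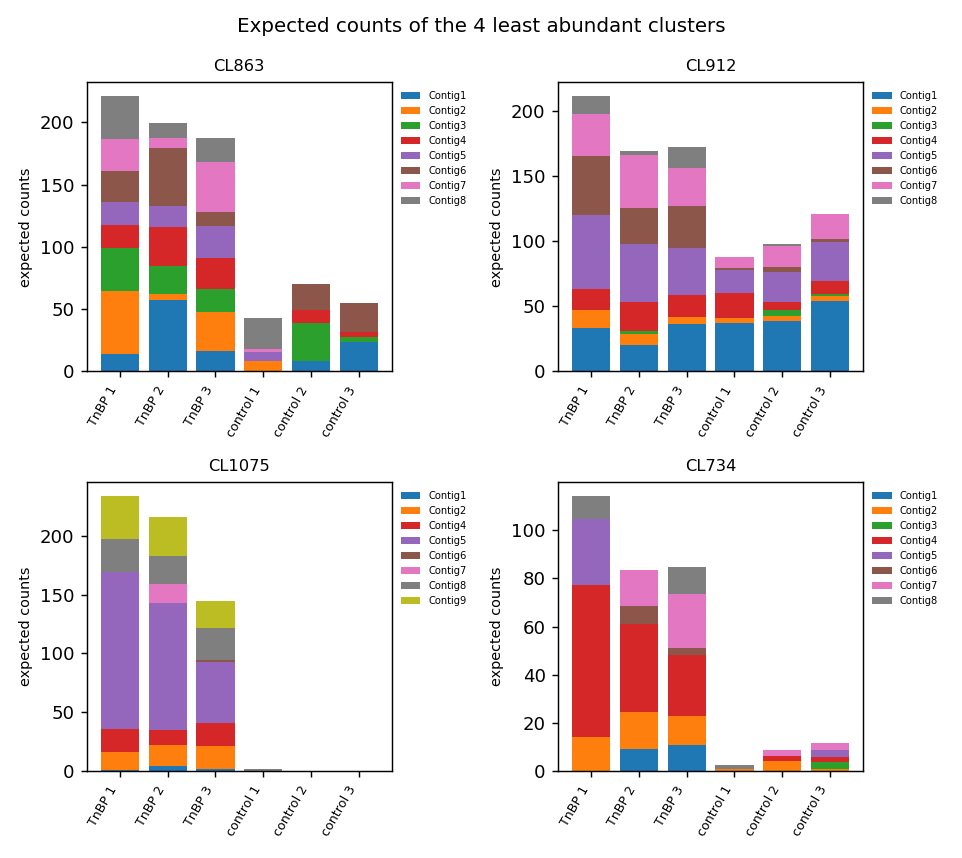
Expected counts of each contig, stacked, in 3 TnBP libraries (left) and 3 control libraries (right) for the 4 least abundant clusters. CL863 draws on separate contigs in control 1 and in controls 2 and 3, and CL1075 holds 2, 0 and 0 counts in controls.

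CL734 and CL1075 were spread over contigs of which few could be tested. In CL734, 2 of 8 members were tested and both were called higher. CL734.Contig4 had 63.4, 36.7 and 25.3 expected counts with TnBP, against 0, 2.39 and 1.82 in controls (adjusted p by edgeR = 0.00028). CL734.Contig2 had 14, 15 and 12 counts with TnBP, against 1, 4 and 1 in controls (adjusted p by edgeR = 0.013), and missed the threshold without control replicate 1 (adjusted p by edgeR = 0.064) or control replicate 3 (adjusted p by edgeR = 0.071). In CL1075, 5 of 8 members were tested and all were called higher, and only CL1075.Contig8 had any count in a control, 2 in control replicate 1. With so few control counts, the tested members of CL734 and CL1075 passed the filter only through the TnBP libraries. Their calls could therefore only be rises, and the counts of calls add no support.

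The members ranged from 201 to 6581 bases, with a median of 1060, against 812 for contigs of smaller clusters and 361 for single unigenes. Of the 22 tested members longer than 2000 bases, 10 rose and 3 fell, or 45.5% and 13.6%, beside 43.4% and 21.4% of all contigs of that length, and the median was 0.29 on the log2 scale, as for all 2695 tested contigs of that length. Of the 17 tested members no longer than 500 bases, 5 rose and 5 fell, or 29.4% each, beside 13.7% and 32.1% of all contigs of that length, and the median was -0.59, beside -0.29 for all 8148 such contigs. Relative to their clusters, 7 members over 2000 bases changed upward and 1 downward, or 31.8% and 4.55%, beside 13.9% and 6.66% of the 991 contigs of that length so tested. The upward calls include CL136.Contig2 and CL136.Contig9, which were set against a cluster with CL136.Contig1. Relative to members only, CL136.Contig9 was not called, at 0.067 (edgeR usage test, adjusted p = 0.87). Of the members' 595 expected counts above 0, 81.0% lay more than 1e-06 from a whole number, beside 72.6% in smaller clusters and 8.36% in single unigenes, so reads of most members had been divided between sequences. The part of this division in the differences between members was not tested. The cluster sums, except that of CL136, do not carry the division within a cluster. Several sums are themselves not whole numbers, as in CL734 with 114.28, 83.47 and 84.73 expected counts in TnBP libraries. A division with sequences outside the cluster can thus remain in the sums, and its part was not tested.

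How far the groups shared the order of contigs within a cluster varied. The Spearman correlation of mean FPKM in TnBP and control libraries, across the contigs of a cluster, was 0.98 in CL650, 0.95 in CL19 and in CL2346, 0.94 in CL2986 and 0.90 in CL760. It was 0.74 in CL136, 0.57 in CL912, 0.56 in CL299, 0.48 in CL863 and 0.25 in CL1075, and lay from 0.75 to 0.85 in CL509, CL158 and CL734. These are descriptions over 8 to 13 contigs that share libraries and divided reads.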

How the data were processed

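Each library had 1 deposited table with a length, an expected count and an FPKM per contig, per the file headers. The authors left expected counts, which are estimated read numbers, unscaled. The authors had already divided FPKM by length and depth. The submitters' processing notes list RSEM and Bowtie 0.12.2 with no role, beside a mouse genome build, mm8, although all identifiers carry an Eisenia fetida suffix. For the assembler, read filters and strand handling, no source used here gives a name or setting. Sequences missing from a table were set to 0.

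Counts were rounded and fitted over all contigs with edgeR 4.0.16 in R 4.3.3 (filterByExpr with a minimum count of 10, TMM, quasi-likelihood test, TnBP over control, Benjamini-Hochberg adjustment). Cluster sums were fitted with all other clusters and unigenes, and diffSpliceDGE was used within clusters. The scripts were tested on simulated data. Libraries were grouped by their treatment labels. Their totals, 8435554 to 9643939, gave tested members a median SE of 0.20 on the log2 scale. Library pairs of a group differed by 2.67 to 3.40 times sampling noise, so each counted as 1 replicate. Members, lists and tests were chosen with earlier results of these data known. Named contigs were the leading contigs of the 8 most abundant clusters and of the 5 with most contigs, the 3 steepest called changes each way among members with a count in every library and at least 10 CPM on average in the higher group, and the 3 most frequent contigs found in 1 group only. Other named contigs were chosen after their values were seen. Alternatives included DESeq2 1.42.0, limma 3.58.1 applied to log2 FPKM with a pseudocount of 1 or 0.1, other filters and scalings, cluster limits of 6 and 10 contigs, each library left out, and a replicate block. DESeq2 was not run within clusters.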

Additional observations from a re-analysis of the deposited data

How the results depend on the processing

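With a cluster limit of 6 contigs in place of 8 there were 162 called members, 99 higher and 63 lower, and 35 called cluster sums, 22 higher and 13 lower, while with a limit of 10 there were 13 called members, 7 higher and 6 lower, and 3 called sums, 1 higher and 2 lower. The same limits gave 90 usage calls, 56 upward and 34 downward, against 11, 8 upward and 3 downward, and leading contigs that differed in 24 and in 2 clusters. In library totals 54 members were higher and 5 lower, and limma on log2(FPKM + 1) called 54 and 5 and on log2(FPKM + 0.1) 52 and 5. A filter of 5 CPM in 3 libraries left 18 higher and 23 lower. Of the cluster sums 11 were higher and 0 lower in library totals, and limma called 1 lower with either pseudocount. Clusters with both directions numbered 2 at 2-fold or more and 3 in library totals. The TnBP minus control share of members was 0.0453 percentage points in FPKM and turned to -1.98 with all contigs of the clusters and to -0.0336 after TMM scaling. Members detected differed by 28 at 10 or more counts and by 27.7 at an FPKM of 1 or more.

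These log2 fold changes turned in library totals and in limma at pseudocounts of 1 and 0.1. The sum of CL650 was 0.20, 0.31 and 0.31, of CL2986 0.028, 0.056 and 0.056, of CL2346 0.78, 0.77 and 0.78, of CL509 0.36, 0.14 and 0.14, and of CL912 0.74, 0.53 and 0.56. The sum of CL136 was 0.47 in library totals and stayed lower in limma, at -0.55 with either pseudocount. CL650.Contig2 was 0.19, 0.20 and 0.20, CL136.Contig6 0.18, 0.19 and 0.19, CL2986.Contig6 0.26, 0.25 and 0.25, CL509.Contig11 0.20, 0.19 and 0.19, CL158.Contig7 0.69, 0.68 and 0.72, CL760.Contig7 0.55, 0.52 and 0.55, and CL2986.Contig7 0.76, 0.72 and 0.76. FPKM values carry no TMM factor, and a sum of FPKM gives short contigs more weight than a sum of counts. Values near 0 also turned otherwise. With no filter on low counts the sum of CL2346 was 0.070, that of CL912 0.028 and CL2986.Contig7 0.064, and with DESeq2 the sum of CL2346 was 0.039 and CL2986.Contig7 0.023. CL2346.Contig4 was -0.026 with the 5 CPM filter.

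Leaving out each library in turn gave 45 to 54 called members, 27 to 33 higher and 18 to 22 lower, 25 to 30 usage calls, 17 to 20 upward and 8 to 10 downward, and 11 called sums, 7 higher and 4 lower, every time. It gave 4 to 7 clusters with both directions, 6 to 8 with differing leading contigs, a share difference of 0.122 to 0.140 percentage points and 20.3 to 21.3 more members detected. The sum of CL2346 ranged from -0.090 to 0.037, that of CL912 from -0.13 to 0.047, CL2346.Contig4 from -0.055 to 0.040, CL158.Contig7 from -0.33 to 0.095 and CL2986.Contig7 from -0.11 to 0.018. Of the 50 calls, 40 remained with DESeq2, 36 in library totals, 35 with the 5 CPM filter, 33 in limma with either pseudocount and 45 with a replicate block. CL509.Contig3 (0.56, edgeR adjusted p = 0.031) lost its call without any TnBP replicate or control replicate 2 (adjusted p = 0.068 to 0.13), and with the block (0.055) or DESeq2 (0.075). With DESeq2, CL734.Contig2 (adjusted p = 0.14) and CL863.Contig5 (0.064) were lost. Replicate numbers did not pair the libraries, since deviations of same-numbered libraries correlated at -0.0032, 0.045 and -0.016. With the number as a replicate block 47 members, 27 higher and 20 lower, 27 usage calls and 11 cluster sums were called. Without CL136, a setting chosen after seeing the data, 44 members and 26 usage calls remained. Relative to members only, also chosen then, there were 30 usage calls, 17 upward and 13 downward. Depth limits what can be said of the 30 untested members and of contigs with a few counts in controls.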

Other observations

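CL136.Contig1, the contig kept out of the members, had 158739, 183653 and 163491 expected counts in TnBP libraries, against 301080, 395891 and 332002 in control libraries. That was 1.76% ± 0.138 of all counts with TnBP and 3.87% ± 0.460 in controls (SD, n = 3 each). Its log2 fold change was -1.90 ± 0.11 (SE, adjusted p by edgeR = 1.1e-07), and -1.13 in library totals. It is of nearly the same length as CL136.Contig2, at 6365 and 6581 bases, and the 2 changed in opposite directions.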
